A study of Homo sapiens with 6 samples.

Results

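Tubulin genes encode the building blocks of microtubules. They were examined in A549, a human lung adenocarcinoma line, after RNA interference against RPS19, the gene of a small-subunit ribosomal protein. The members were the 10 genes TUBA1A, TUBA1B, TUBA1C and TUBA4A (alpha-tubulin), TUBB, TUBB2A, TUBB2B, TUBB3 and TUBB6 (beta-tubulin) and TUBG1 (gamma-tubulin), chosen by gene name in the authors' table from 63152 genes counted. The names matched 11 entries on the reference chromosomes, because TUBB3 has 2 Ensembl identifiers there. The siRPS19 cells received a siGENOME SMARTpool against RPS19 and the siOTP cells an ON-TARGETplus non-targeting pool, so the product line differed along with the target. Both were given at 10 nM by reverse transfection, with RNA harvested at 72 h and 3 biological replicates in each group.

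An alpha- and a beta-tubulin bind as a heterodimer, and heterodimers polymerise head to tail into protofilaments whose lateral association forms the microtubule wall. Gamma-tubulin, in a ring complex with other proteins, forms the template from which microtubules grow, chiefly at centrosomes. Cells also adjust tubulin mRNA to the pool of free heterodimers: when it is in excess, TTC5 recognises the first residues of a newly made alpha- or beta-tubulin on the ribosome and its mRNA is degraded. The coding starts are shown because they encode these first residues.

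The first 30 coding bases follow, 5′ to 3′, from 1 principal coding transcript per gene in GENCODE 29, with the first 12 in capitals.
TUBA1B: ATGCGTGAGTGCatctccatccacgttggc
TUBA4A: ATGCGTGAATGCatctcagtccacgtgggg
TUBB: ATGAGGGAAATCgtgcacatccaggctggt
TUBB2A: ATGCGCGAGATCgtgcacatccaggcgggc
TUBB2B: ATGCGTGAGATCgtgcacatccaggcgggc
TUBB3: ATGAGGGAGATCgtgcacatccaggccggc
TUBB6: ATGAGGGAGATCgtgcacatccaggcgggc
TUBG1: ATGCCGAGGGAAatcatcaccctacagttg
TUBA1A, TUBA1B and TUBA1C were identical over these bases, so 1 line stands for these 3 genes. TUBA4A differed from TUBA1B at 1 of the first 12 bases. TUBB3 and TUBB6 each differed from TUBB at 1 of them, and TUBB2A and TUBB2B each at 3. These differences leave the encoded residues unchanged. TUBG1 differed from TUBB at 8 of the 12.

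RPS19 itself averaged 41.7 ± 4.91 CPM (TMM-normalised read counts scaled to library size) in siRPS19 cells and 1472 ± 96.6 CPM in siOTP cells (SD, n = 3 each), a log2 fold change of -5.14 (SE 0.09, adjusted p = 4.98e-12). Libraries held 20814110 to 23889372 counts on genes. Reads outside genes made up 5.13% to 6.36% in siRPS19 libraries and 3.39% to 3.85% in siOTP libraries, and the part of this difference in the results was not tested. The epithelial markers KRT8, KRT18, KRT19, EPCAM and CDH1 summed to 1124 to 1266 CPM in siRPS19 and 1760 to 2233 CPM in siOTP cells, while the alveolar factor NKX2-1 was at 0 in all libraries. These epithelial markers went both ways: KRT8, KRT18 and EPCAM fell, whereas KRT19 (245 ± 9.98 CPM in siRPS19 and 35.7 ± 3.24 CPM in siOTP cells) and CDH1 (50.0 ± 1.43 CPM and 30.6 ± 1.16 CPM) rose. The sum of 4 leukocyte markers was at most 0.0828 CPM in siRPS19 and 0.103 CPM in siOTP cells, and that of 3 endothelial markers at most 0.304 CPM and 0.101 CPM. Of the endothelial markers, PECAM1 was matched only to an entry outside the reference chromosomes, so its 0 reads in all libraries say little. Alveolar markers summed to 3.12 to 4.04 CPM in siRPS19 and 1.32 to 1.49 CPM in siOTP cells, and fibroblast markers to 15.1 to 20.7 CPM and 35.1 to 42.6 CPM.

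The tubulin genes fell together in siRPS19 cells. All 10 genes with counts were lower past an adjusted p of 0.05 in edgeR's quasi-likelihood test. Of the 17171 genes tested, 38.9% were lower, 39.5% higher and 78.3% called in either direction. Groups did not overlap and siRPS19 was lower in 10 of 10, against 39.6% of genes tested, and 9 fell at least 2-fold, against 12.4%. Their median log2 fold change was -1.37, beside 0.02 over all genes tested. Members took 0.105% ± 0.00335 of gene counts in siRPS19 libraries and 0.367% ± 0.00930 in siOTP libraries (SD, n = 3 each). These are bulk samples, so fewer cells of a type and less tubulin mRNA per cell cannot be told apart. A scaling by library totals, without TMM factors, moved the log2 fold changes of all genes up by a median of 0.29 and made 65.8% of calls higher, against 50.4% with TMM factors; the 9 members other than TUBB3 remained called lower there.

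**Figure D1:**
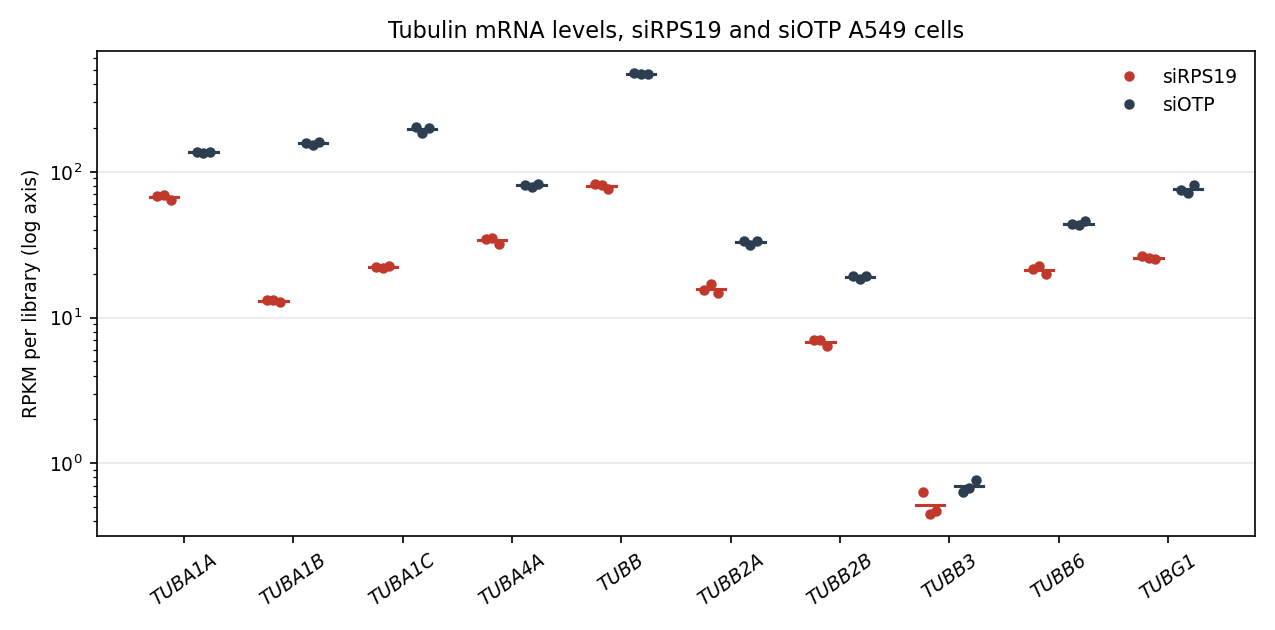
Levels of the 10 tubulin genes in RPKM (log axis), with a point for each library and a line at the mean of 3 libraries, siRPS19 in red and siOTP in dark blue. TUBA1B, TUBA1C and TUBB show the widest gaps, and the TUBB3 groups nearly touch.

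Among the alpha-tubulins, TUBA1B fell furthest of all members. TUBA1B, an alpha-tubulin made in most cell types (chr12:49521565-49525180 on hg19, minus strand), had 13.2, 13.2 and 12.8 RPKM in siRPS19 libraries, against 159, 153 and 160 RPKM in siOTP libraries. RPKM here is TMM-normalised CPM per kilobase of the transcript length in the authors' table. The 3 siRPS19 libraries lay close together and far under every siOTP library. The log2 fold change of TUBA1B was -3.59 (SE 0.04, adjusted p = 1.42e-23), which leaves 8.33% of the siOTP level, and 1.09% of the genes tested had a lower value.

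TUBA1C, a close relative in the same cluster on chromosome 12 (chr12:49582519-49667114, plus strand), had 22.3, 21.9 and 22.6 RPKM in siRPS19 libraries, against 203, 184 and 200 RPKM in siOTP libraries. It fell 8.78-fold (SE 0.05 on the log2 scale, adjusted p = 2.98e-22). The groups were well apart, with siOTP replicate 2 the lowest of its group.

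TUBA1A, the alpha-tubulin best known from developing neurons (chr12:49578579-49583107, minus strand), lies in the same cluster and fell far less. Its levels were 68.3, 69.1 and 64.0 RPKM in siRPS19 libraries, against 137, 135 and 137 RPKM in siOTP libraries. All siRPS19 libraries stood near 49.3% of the siOTP level, a log2 fold change of -1.02 (SE 0.04, adjusted p = 2.45e-15). TUBA4A, an alpha-tubulin with a role in platelets and neurons (chr2:220114433-220142892, minus strand), had 34.4, 35.4 and 32.1 RPKM in siRPS19 libraries, against 81.7, 78.4 and 82.7 RPKM in siOTP libraries. Its groups were also apart, at a log2 fold change of -1.25 (SE 0.04, adjusted p = 2.34e-16).

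TUBB, the beta-tubulin of most dividing cells (chr6:30687978-30693203, plus strand), had the highest RPKM of the members in both groups with the authors' transcript lengths. It had 82.4, 81.0 and 76.5 RPKM in siRPS19 libraries, against 478, 465 and 466 RPKM in siOTP libraries. The lowest siOTP library thus stood several times over the highest siRPS19 library, and the log2 fold change was -2.55 (SE 0.04, adjusted p = 2.87e-21).

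The TUBB2 pair on the short arm of chromosome 6 fell by less. TUBB2A, a beta-tubulin abundant in brain (chr6:3153903-3157760, minus strand) had 15.5, 17.0 and 14.7 RPKM in siRPS19 libraries, against 33.7, 31.3 and 33.4 RPKM in siOTP libraries. TUBB2B, a near copy needed in neuronal migration (chr6:3224495-3231964, minus strand), had 7.00, 7.02 and 6.38 RPKM in siRPS19 libraries, against 19.4, 18.4 and 19.3 RPKM in siOTP libraries. Neither gene's groups overlapped, and the spread within each group was small beside the gap. The log2 fold change was -1.06 for TUBB2A (SE 0.06, adjusted p = 7.51e-13) and -1.49 for TUBB2B (SE 0.06, adjusted p = 7.54e-15).

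TUBB6, a beta-tubulin of many non-neuronal tissues (chr18:12307668-12344319, plus strand), had 21.5, 22.7 and 19.8 RPKM in siRPS19 libraries, against 43.8, 42.9 and 45.6 RPKM in siOTP libraries. Its siRPS19 libraries lay at 48.4% of the siOTP level (log2 fold change -1.05, SE 0.05, adjusted p = 2.11e-14).

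TUBB3, the beta-tubulin used as a marker of neurons (chr16:89987800-90005169, plus strand), had few counted reads and the smallest fall of the members. It had 101, 64 and 70 reads in siRPS19 libraries, against 82, 82 and 91 reads in siOTP libraries, or 0.633, 0.452 and 0.472 RPKM against 0.641, 0.677 and 0.765 RPKM. The unscaled reads of the groups overlapped, and after TMM scaling siRPS19 replicate 1 lay just under the lowest siOTP library. The log2 fold change was -0.41 (SE 0.16, adjusted p = 0.0233). The call was lost in 6 of 16 tested alternatives, with library totals among them (-0.12, adjusted p = 0.466), and without siRPS19 replicate 2 (adjusted p = 0.0803), without siRPS19 replicate 3 (adjusted p = 0.0916) or without siOTP replicate 3 (adjusted p = 0.0806), all in edgeR. Neuronal markers summed to 153 to 177 CPM over 8 genes in siRPS19 cells and 88.5 to 97.7 CPM in siOTP cells, of which 3 (ELAVL3, ELAVL4 and DCX) stayed under 1 CPM in all libraries. They too went both ways: NEFL, at 81.4 ± 6.42 CPM in siRPS19 and 6.14 ± 0.454 CPM in siOTP cells, carried most of the higher sum, NEFM and RBFOX3 also rose, and SNAP25 and SYP fell. The part of these markers in the TUBB3 level was not tested. The second TUBB3 identifier, ENSG00000198211, overlaps the first on the same strand and had 0 reads in all 6 libraries. In the GENCODE models used for the coding starts, the second entry covers 89.5% of the exon bases of the first. How reads in this overlap were counted is not stated, so the counted reads may come from only part of the TUBB3 exons. The part of this overlap in the low level and small fall of TUBB3 was not tested.

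TUBG1, the main gamma-tubulin of microtubule nucleation (chr17:40761694-40767252, plus strand), had 26.4, 25.5 and 25.2 RPKM in siRPS19 libraries, against 74.5, 71.3 and 81.4 RPKM in siOTP libraries. The groups were far apart, at a log2 fold change of -1.56 (SE 0.05, adjusted p = 4.34e-17), or 2.95-fold lower.

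**Figure D2:**
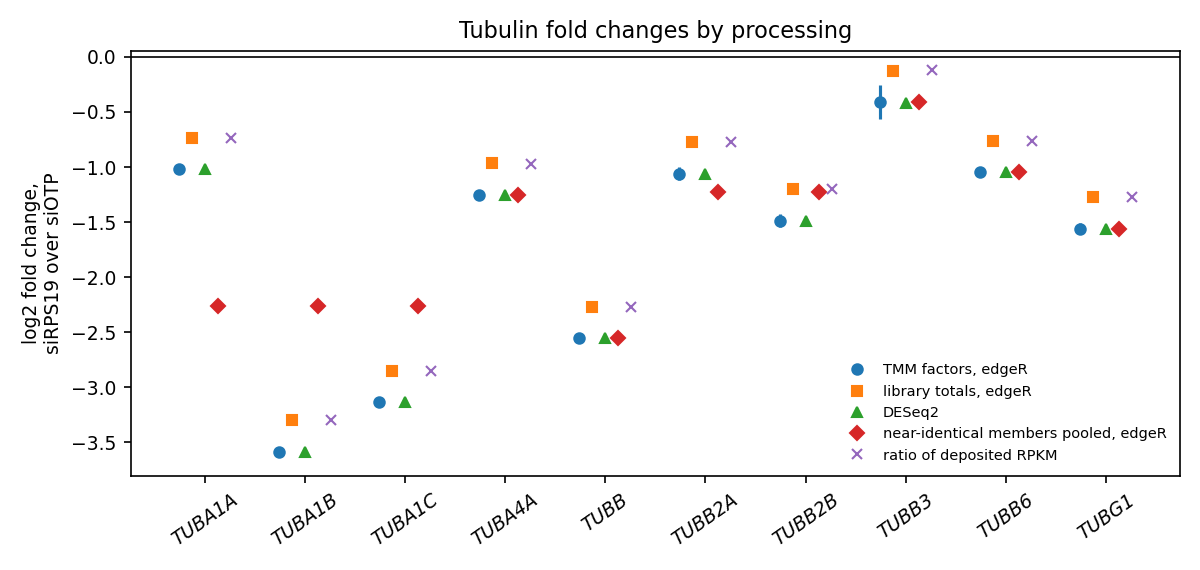
Log2 fold change of each tubulin gene, siRPS19 over siOTP, under 5 ways of processing, with bars of 1 SE on the TMM edgeR value. With near-identical genes pooled, TUBA1A, TUBA1B and TUBA1C share the value -2.26 and TUBB2A and TUBB2B the value -1.23, while library totals and the authors' deposited RPKM lie above the TMM value for every gene.

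Because members fell by unequal amounts, the makeup of the tubulin mRNA pool differed between the groups. Shares of the summed alpha- or beta-tubulin RPKM, with the other measured genes of each class included, are given as a description. The alpha pool summed to 137 ± 4.34 RPKM in siRPS19 and 570 ± 17.3 RPKM in siOTP libraries, and the beta pool to 191 ± 5.55 RPKM and 949 ± 20.4 RPKM (SD, n = 3 each).

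TUBA1A made up 49.0% ± 0.453 of the alpha pool in siRPS19 and 23.9% ± 0.562 in siOTP libraries. TUBA4A took 24.8% ± 0.488 in siRPS19 and 14.2% ± 0.112 in siOTP libraries. These genes, the alpha-tubulins that fell least, thus had larger shares in every siRPS19 library. TUBA1B took 9.55% ± 0.155 in siRPS19 and 27.5% ± 0.221 in siOTP libraries, and TUBA1C 16.3% ± 0.761 and 34.3% ± 0.827. The ratio of TUBA1A to TUBA1B RPKM was 5.13 ± 0.129 in siRPS19 and 0.868 ± 0.0156 in siOTP libraries.

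In the beta pool TUBB held 41.9% ± 0.917 in siRPS19 and 49.5% ± 0.981 in siOTP libraries. TUBB6 held 11.2% ± 0.437 in siRPS19 and 4.65% ± 0.0812 in siOTP libraries. TUBB2A held 8.24% ± 0.385 in siRPS19 and 3.45% ± 0.0713 in siOTP libraries. TUBB4B, a widely made beta-tubulin outside the members, held 33.4% ± 1.26 in siRPS19 and 39.8% ± 0.880 in siOTP libraries. TUBB and TUBB4B together dominated the pool in both groups. Shares between genes depend on the transcript length: with the length of 1 principal coding transcript, TUBA1B stood above TUBA1C, at 12.1% and 10.5% of the alpha pool in siRPS19 and 35.9% and 22.8% in siOTP libraries, whereas the authors' lengths gave the opposite order.

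**Figure D3:**
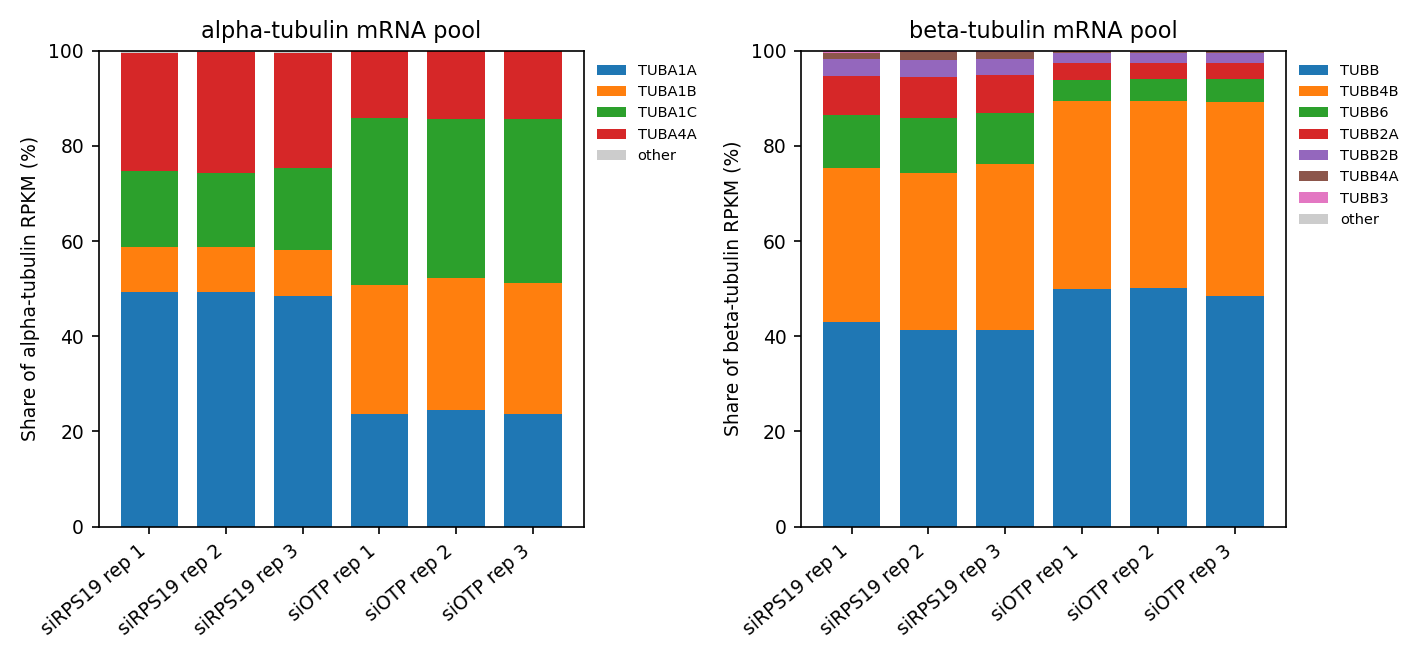
Share of each gene in the summed alpha-tubulin (left) and beta-tubulin (right) RPKM of each library, in percent, siRPS19 libraries left of siOTP libraries. TUBA1A and TUBA4A fill most of the alpha bars in siRPS19, and TUBB and TUBB4B lead the beta bars in both groups.

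Several members resemble other genes closely enough to limit their separate values. Of all 50-base stretches in the principal coding transcript, 65.5% for TUBB2A, 62.7% for TUBA1B, 52.2% for TUBB2B, 41.1% for TUBA1A, 30.1% for TUBG1 and 25.1% for TUBA1C also occurred in a gene elsewhere in GENCODE 29, against 0.993% for TUBB6. For TUBG1 nearly all of these were shared with TUBG2 (29.1% of its stretches). The count of reads without a unique alignment stood at 0 in all 6 libraries, and how reads fitting several copies were treated is not given in the sources used here. Summed before the fit, TUBA1A, TUBA1B and TUBA1C fell 4.80-fold (log2 fold change -2.26, SE 0.04, adjusted p = 2.04e-20) and TUBB2A with TUBB2B fell 2.34-fold (-1.23, SE 0.05, adjusted p = 6.35e-15). The labels do not say that strand was kept, so reads of overlapping genes cannot be told apart. On hg19, TUBA1A and TUBA1C overlap by 589 bases on opposite strands. TUBB6 overlaps AFG3L2 (mean 1329 reads per library) and TUBG1 overlaps FAM134C (mean 1545 reads). TUBA1B overlaps RP11-386G11.10 (mean 2.5 reads) over 3616 bases, and TUBA4A overlaps STK16 (mean 633 reads) over 627 bases. In GENCODE 29, 89.5% of TUBB3 and 72.6% of TUBA1B exon bases overlapped other genes, against 22.2% for TUBA1C and 20.1% for TUBB. For TUBG1 this was 6.58% and for TUBB2A, TUBB2B and TUBB6 0%. The part of these overlaps in the levels of these members, TUBB3 and TUBA1B among them, and in the pool shares was not tested.

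The 3 beta-tubulin pseudogenes with the most reads also fell. TUBBP1 averaged 13.9 ± 0.294 CPM in siRPS19 and 84.1 ± 1.28 CPM in siOTP libraries (log2 fold change -2.60, SE 0.05, adjusted p = 4.19e-20), and TUBBP2 fell by 2.53 and TUBB2BP1 by 1.44 on the log2 scale. TUBA3FP had 27, 24 and 34 reads in siRPS19 libraries, against 9, 18 and 6 reads in siOTP libraries, and rose by 1.07 (SE 0.33, adjusted p = 0.00558). TUBB shares 16.1% of its 50-base stretches with TUBBP1. With pseudogene reads added to their parents, TUBB stood at -2.55 and TUBB2B at -1.48.

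Other tubulins gave a mixed picture. TUBB4B averaged 135 ± 2.77 CPM in siRPS19 and 798 ± 32.4 CPM in siOTP libraries and fell by 2.57 on the log2 scale (SE 0.04, adjusted p = 2.33e-21). TUBB4A, a beta-tubulin of neurons and oligodendrocytes, averaged 9.38 ± 1.16 CPM in siRPS19 and 15.4 ± 0.568 CPM in siOTP libraries and fell by 0.71 (SE 0.09, adjusted p = 6.21e-07). The epsilon-tubulin TUBE1, of centrioles, fell by 0.33 (SE 0.11, adjusted p = 0.0113), a call lost with library totals (-0.04, adjusted p = 0.734). TUBG2, the second gamma-tubulin, averaged 37.2 ± 4.48 CPM in siRPS19 and 39.7 ± 2.20 CPM in siOTP libraries, a log2 fold change of -0.09 that missed the threshold, whereas with library totals it was called higher (0.19, adjusted p = 0.0195). The delta-tubulin TUBD1 (0.05) and the alpha-tubulin TUBA3D (0.61) were not called, although both were also called higher with library totals, at 0.33 and 0.89. TUBA3C, TUBA3E, TUBA8, TUBAL3, TUBB1 and TUBB8 had too few reads to be tested.

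TTC5, which carries out the mRNA control described above, averaged 22.2 ± 0.652 CPM in siRPS19 and 29.5 ± 0.449 CPM in siOTP libraries. It fell by 0.41 on the log2 scale (SE 0.06, adjusted p = 2.58e-06), a call lost with library totals (-0.12, adjusted p = 0.0697).

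Tubulin folding cofactors assemble the heterodimer. Of 7 tested, 4 fell and 1 rose, with a median log2 fold change of -0.45. Over all genes tested, 38.9% fell and 39.5% rose. TBCD averaged 94.2 ± 0.725 CPM in siRPS19 and 180 ± 1.59 CPM in siOTP libraries and fell by 0.93, TBCA fell by 0.72 and TBCE by 0.55. TBCEL, a TBCE-like protein that destabilises tubulin, averaged 38.9 ± 0.643 CPM in siRPS19 and 17.5 ± 1.09 CPM in siOTP libraries and rose by 1.15. With library totals the counts were 4 lower and 3 higher.

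In the gamma-tubulin ring complex, the partners of TUBG1, 7 of 9 genes fell and 1 rose (median -0.29), against 38.9% and 39.5% of all genes tested. Some of these falls were small, such as that of TUBGCP2 (log2 fold change -0.10). MZT1, a small subunit of the complex, averaged 6.51 ± 0.323 CPM in siRPS19 and 38.5 ± 2.81 CPM in siOTP libraries, a log2 fold change of -2.56 (SE 0.08, adjusted p = 4.69e-17). TUBGCP3, a core subunit, averaged 19.6 ± 1.28 CPM in siRPS19 and 55.5 ± 1.83 CPM in siOTP libraries and also fell (adjusted p = 2.68e-15). NEDD1, the centrosomal adaptor, fell by 0.97 and TUBGCP5, another ring subunit, by 0.47 on the log2 scale. With library totals 4 were lower and 2 higher.

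Of 18 enzymes that modify tubulin, 10 rose and 6 fell (median 0.37), against 39.5% and 38.9% of all genes tested. SIRT2, a deacetylase of alpha-tubulin, averaged 96.5 ± 1.04 CPM in siRPS19 and 32.2 ± 0.697 CPM in siOTP libraries and rose by 1.58 (SE 0.05, adjusted p = 1.53e-17). The carboxypeptidases AGBL5 and AGBL2, which trim glutamates from tubulin tails, rose by 1.33 and 1.94, while TTLL12, of the tubulin ligase-like family, fell by 0.61. With library totals 12 were higher and 3 lower.

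Of 22 microtubule-associated, plus-end and severing proteins, 13 fell and 6 rose (median -0.34), against 38.9% and 39.5% of all genes tested. STMN1, which sequesters tubulin heterodimers, averaged 43.9 ± 1.17 CPM in siRPS19 and 240 ± 7.01 CPM in siOTP libraries and fell by 2.45 (SE 0.04, adjusted p = 3.42e-21). Its relative STMN3 averaged 57.8 ± 3.30 CPM in siRPS19 and 13.5 ± 1.01 CPM in siOTP libraries and rose by 2.10 (SE 0.07, adjusted p = 7.85e-17). The plus-end protein MAPRE3 rose by 2.29, and FIGNL1, of the severing-enzyme family and also active in DNA repair, fell by 2.14. With library totals 10 were lower and 8 higher (median -0.05).

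**Figure D4:**
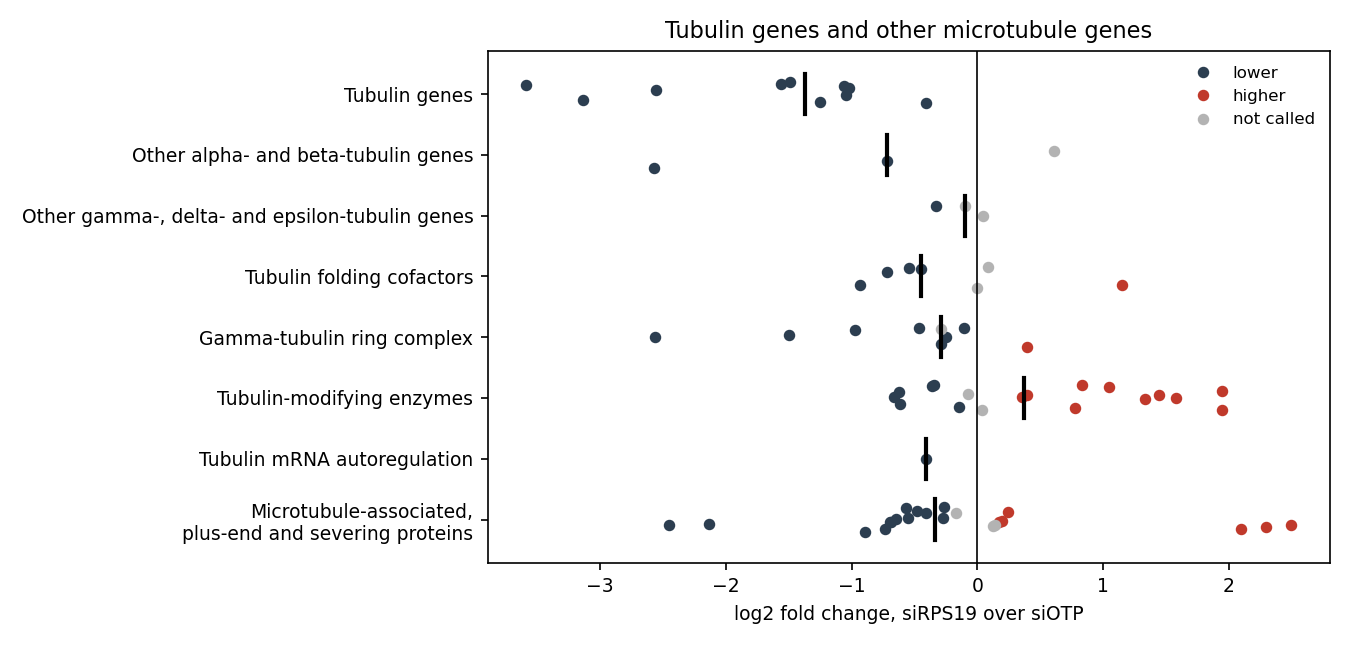
Log2 fold change, siRPS19 over siOTP, of every tested tubulin gene and of other microtubule genes by group, coloured by call, with a black line at each group's median. All 10 tubulin members lie left of 0 (median -1.37), while the modifying enzymes have a median of 0.37.

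The genes nearest to TUBB in profile over the 6 libraries, by Euclidean distance of centred log2(CPM + 1) values, were MTHFD2 (distance 0.0679), RFC5 (0.0936), TMPO (0.105) and PHF19 (0.113). MTHFD2, a mitochondrial folate enzyme, averaged 39.8 CPM in siRPS19 and 241 CPM in siOTP libraries. The log2 fold changes of these genes ran from -2.70 to -2.57. Choosing by this distance favours genes with a fold change like that of TUBB, so their closeness is no separate result.

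Promoters were read because the members moved together. RefSeq entries on GRCh38.p14 matched 10 of 10 members with 15 promoters, and the 250 bases before each start were searched on both strands for 4 motifs chosen with the results known. The cell-cycle motif CHR (TTTGAA) was found for TUBA1C only, against 13.3% of 35116 promoters. The CCAAT box was found for 7 members, against 32.0% of promoters, the E2F motif TTTNNCGC for TUBB6 and TUBG1, against 5.92%, and the GC box GGGCGG for 9 members, against 42.6%. A member with several promoters counts once if any of them holds the motif, while the background counts single promoters. The sequences below carry the largest falls (TUBA1B and TUBA1C), their less affected neighbour (TUBA1A) and the E2F motif (TUBG1), with CHR, CCAAT and E2F matches in capitals. They are written on the strand of the gene and lie, in that order, at chr12:49131396-49131645 (minus strand), chr12:49264832-49265081 (plus), chr12:49189081-49189330 (minus) and chr17:42609433-42609682 (plus).
TUBA1B: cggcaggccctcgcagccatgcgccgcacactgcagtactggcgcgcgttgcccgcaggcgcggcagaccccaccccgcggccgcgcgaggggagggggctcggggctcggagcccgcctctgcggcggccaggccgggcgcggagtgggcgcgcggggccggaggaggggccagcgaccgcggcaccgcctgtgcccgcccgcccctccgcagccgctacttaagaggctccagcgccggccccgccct
TUBA1C: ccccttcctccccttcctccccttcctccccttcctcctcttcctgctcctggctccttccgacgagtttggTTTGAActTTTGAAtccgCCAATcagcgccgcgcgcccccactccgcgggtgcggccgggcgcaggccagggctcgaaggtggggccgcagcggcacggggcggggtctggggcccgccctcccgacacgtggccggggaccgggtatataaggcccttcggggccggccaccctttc
TUBA1A: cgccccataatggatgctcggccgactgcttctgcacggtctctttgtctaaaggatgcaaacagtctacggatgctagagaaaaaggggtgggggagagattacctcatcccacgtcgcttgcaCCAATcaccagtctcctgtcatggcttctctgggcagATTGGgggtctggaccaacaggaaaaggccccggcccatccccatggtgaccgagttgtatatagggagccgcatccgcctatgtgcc
TUBG1: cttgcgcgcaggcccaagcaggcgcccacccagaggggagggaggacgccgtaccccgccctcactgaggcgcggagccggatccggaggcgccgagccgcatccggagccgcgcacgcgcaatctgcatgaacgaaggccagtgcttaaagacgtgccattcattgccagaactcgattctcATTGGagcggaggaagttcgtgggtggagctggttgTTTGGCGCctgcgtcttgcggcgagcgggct
TUBA1B, with the largest fall, held none of the capitalised motifs in this window. A match is a description of letters and not a bound site.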

How the data were processed

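RNA from 3 siRPS19 and 3 siOTP A549 cultures was sequenced as 50-base pairs. The authors deposited raw counts per Ensembl gene for each library and an RPKM table with 1 value per group. The submitters' processing notes name hg19, TopHat2 (2.0.8b), R (3.0.2), HTSeq and DESeq. Neither the counting mode nor the gene models' release is stated in the sources at hand. The deposited group mean counts, a column of other values, equal the mean count plus 1. A further 6 count columns, whose headers name no replicate, were not used.

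Genes were kept with filterByExpr (minimum count 10, total 15) and tested with edgeR 4.0.16 (TMM, robust quasi-likelihood fit, R 4.3.3) and Benjamini-Hochberg adjustment over 17171 genes, at a threshold of 0.05. The 5 entries naming no gene were left out, with ambiguous reads at 7.50% to 7.60% of entries in siRPS19 and 8.10% to 8.24% in siOTP libraries. Alternatives included DESeq2 1.42.0 and limma-voom (limma 3.58.1). The fit was also run on simulated counts. Only a small part of the genes was changed there, against 78.3% called here, so that run does not check the scaling between the groups. An exact permutation test of 3 libraries against 3 cannot go below p = 0.1. Same-numbered replicates carry the same date in the labels, which do not say what was done on it. The main fit left them unpaired. Only the replicate block, an alternative fit, took these replicates as pairs, on the ground of the date alone. Their deviations correlated across genes at 0.119, -0.133 and 0.0882. No pair of replicates agreed within sampling noise (chi-square per degree of freedom 4.40 to 16.6).

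Members, gene lists and motifs were chosen with earlier results of these data known. Named are all members, RPS19, the other tubulins and TTC5. Also named are up to 4 genes called with the smallest p in each other list and up to 4 pseudogenes by mean count. The last are the 4 profiles nearest to the member with the highest mean RPKM.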

Additional observations from a re-analysis of the deposited data

How the results depend on the processing

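All 10 members stayed lower in direction under 17 alternatives, and 9 of them past the threshold under all 16 that were tested. The exception, TUBB3, missed it with upper-quartile factors (-0.24), library totals (-0.12), DESeq2 (-0.41) and without siRPS19 replicate 2 (-0.33), siRPS19 replicate 3 (-0.33) or siOTP replicate 3 (-0.35). The replicate block, which pairs libraries by the date in the labels, gave 10 members lower and RPS19 at -5.15, and changed no member's call. Differences in pool share, siRPS19 minus siOTP in percentage points, moved by more than the replicate SD without division by length to 23.7 (TUBA1A), -18.3 (TUBA1B), 11.8 (TUBA4A), -9.78 (TUBB), 2.86 (TUBB2A), 1.17 (TUBB2B), 0.424 (TUBB3) and 9.29 (TUBB6). With GENCODE 29 lengths, an alternative chosen after seeing the data, they moved to -23.9 (TUBA1B), -12.3 (TUBA1C), 3.79 (TUBB2A), 1.21 (TUBB2B), 0.510 (TUBB3) and 9.51 (TUBB6). Gene lists were also read under each fit after seeing the data. With library totals, higher and lower calls came to 1 and 2 among other alpha- and beta-tubulins, 2 and 0 among gamma-, delta- and epsilon-tubulins, 3 and 4 among cofactors, 2 and 4 in the ring complex and 12 and 3 among modifying enzymes, and TTC5 gave 0 lower. By construction this scaling lifts all fold changes. Upper-quartile factors (median shift 0.17, 59.8% of calls higher) gave 1 higher other alpha- or beta-tubulin, 1 higher and 0 lower of the gamma-, delta- and epsilon-tubulins, 2 higher cofactors and 4 lower ring complex genes. Without a filter, 1 other alpha- or beta-tubulin was higher and 2 of the gamma, delta and epsilon group lower, and with a mean CPM of at least 1, 2 cofactors were higher. Leaving out 1 library gave 0 to 2 lower in the gamma, delta and epsilon group. For genes with few counted reads such as TUBB3, the low count limits the precision.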

Other observations

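The pseudogene TUBBP5, named here after its values were seen, had 29, 27 and 33 reads in siRPS19 libraries, against 1, 0 and 1 in siOTP libraries. The ratio of the summed, scaled reads was 36.5 (95% exact interval 9.80 to 306, counting error only). The beta-tubulin TUBB8, with too few reads to be tested and also picked out here after its values were seen, had 4, 4 and 7 reads in siRPS19 libraries. In siOTP libraries it had 0, 0 and 1, a ratio of 12.3 (95% exact interval 1.89 to 517, counting error only). Neither interval holds the spread between replicates, and neither is a test.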
